A study of Mus musculus with 6 samples.

Results

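Cystatins are protein inhibitors of papain-like cysteine proteases, and lysosomal cathepsins are the proteases that break down proteins in endosomes and lysosomes. Most cathepsins are made as inactive precursors, sorted to the lysosome and activated there at low pH, and the balance between protease and inhibitor sets how much of this activity a cell holds. In lymphocytes and myeloid cells these proteases also act on immune proteins, such as granule proteases and antigen-presentation chaperones. The genes described here are 3 cystatins (Cst7, Cst3 and Cstb), 6 cathepsins (Ctsb, Ctsc, Ctsd, Ctsh, Ctss and Ctsw) and the asparaginyl endopeptidase legumain (Lgmn), 10 genes in all. They were taken by name. Where a gene had several probe sets, one was selected on its mean signal over the 6 arrays, the brightest being kept, without regard to genotype. Of the 10 genes, 9 were measured among 19505 genes of the series, and Ctsd, an aspartic protease, was not analysed here because no probe set carried its name. The list was put together with results of this comparison known, so that the counts below describe the list and support nothing beyond it.

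Treg cells, the CD4+ T cells that depend on Foxp3, hold back the responses of other immune cells. RNA was measured in CD4+YFP+ Treg cells of Rbx1&Sag-deficient females, which were Foxp3 Cre/wt with both Rbx1 and Sag floxed (Rbx1 fl/fl and also Sag fl/fl), and of Foxp3 Cre/wt control females, with 3 arrays per genotype. Both groups carried the Foxp3 YFP-Cre allele, which marks the sorted cells with YFP and expresses Cre in them. The allele lies on the X chromosome, so that these females also held Treg cells without Cre, which were not sorted, and the mice were free of inflammation. Each array took a pool of 2 to 3 mice aged 8 to 12 weeks, and cells came from spleen and peripheral lymph nodes, enriched for CD4+ cells and then sorted for CD4 and YFP to high purity per the labels (the titles of the samples say muscle, but their tissue and cell type labels say Treg cells of these organs). Rbx1 and Sag, for which the array uses the symbol Rnf7, encode the RING subunits of cullin-RING ubiquitin ligases, and the comparison asks which transcripts of Treg cells change when both are targeted.

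The targeted gene Rbx1 read 5.04, 5.53 and 5.84 on the log2 scale in Rbx1&Sag-deficient arrays, against 9.26, 10.08 and 9.80 in control arrays (log2 fold change -4.24, limma adjusted p = 0.000237). Rnf7 read 10.94, 11.39 and 9.65 in Rbx1&Sag-deficient arrays, against 11.47, 11.29 and 10.93 in control arrays (log2 fold change -0.57, limma adjusted p = 0.379), and whether its probe set lies in the deleted part is not known. Of 11 measured T cell markers all lay above the median of the arrays, and Foxp3 has no named probe set. Of these 11, Ikzf2 (-1.54), Cd4 (-1.07), Cd3d (-0.93) and Cd3g (-0.74) were called lower and none higher, Cd3e had a log2 fold change of -0.68 (limma adjusted p = 0.178), and the median of the list was -0.68. Over all genes 9.49% were called lower, and 18.3% of the genes above the median signal. The array medians were 4.13 to 4.32 in Rbx1&Sag-deficient and at most 4.11 in control arrays, and the upper quartiles 6.93 to 7.37 in Rbx1&Sag-deficient and 7.68 to 7.81 in control arrays. Genes above the median signal stood lower as a body in Rbx1&Sag-deficient cells (median log2 fold change -0.40 over these genes, against 0.04 over all genes). Fold changes below are Rbx1&Sag-deficient minus control, on the log2 scale of the deposited signal.

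Of the 9 measured genes, 5 were lower in Rbx1&Sag-deficient Treg cells than in control cells and none was higher (limma, adjusted p under 0.05 over all genes). These were the inhibitor Cst7, the cathepsins Ctsc, Ctsb and Ctss, and Lgmn, with log2 fold changes of -1.39 for Lgmn to -4.98 for Cst7. Cst3, Cstb, Ctsh and Ctsw did not pass the test. Over all genes 9.49% were called lower and 2.7% higher, and among genes brighter than the median gene, to which 8 of the 9 belong, 18.3% were called lower. In 6 of the 9 genes all Rbx1&Sag-deficient arrays lay below all control arrays, and in none above them, while over all genes these shares were 19.7% and 15.2%. Among the 9747 genes above the median signal, 3482 lay wholly below and 827 wholly above. The median log2 fold change of the 9 genes was -1.39. In a sample of sorted cells, fewer cells with a transcript and less of it per cell cannot be told apart. With the unpaired test that the study's methods name in general, on the same values and with the same adjustment, none of the 5 genes passed (adjusted p = 0.0787 for Cst7 to 0.172 for Lgmn).

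**Figure D1:**
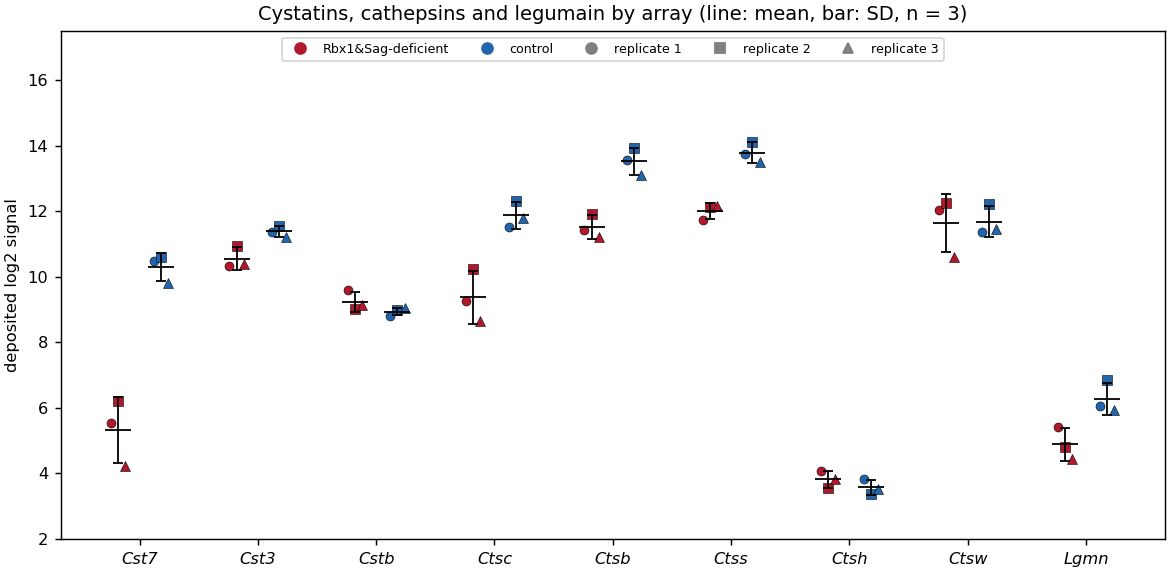
Deposited log2 signal of the 9 measured genes (vertical axis) in each of the 3 Rbx1&Sag-deficient (red, left of each pair) and 3 control arrays (blue), with symbols for the replicate number, the mean as a line and the SD as a bar. The groups lie apart for Cst7, Cst3, Ctsc, Ctsb, Ctss and Lgmn and overlap for Cstb, Ctsh and Ctsw. Heights of different genes come from different probe sets and are not comparable.

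Among the inhibitors, Cst7 encodes cystatin F, an endosomal and lysosomal cystatin of immune cells that inhibits cathepsin C. Cst7 read 5.54, 6.22 and 4.23 in Rbx1&Sag-deficient replicates 1, 2 and 3, against 10.49, 10.61 and 9.82 in control replicates 1, 2 and 3. Every Rbx1&Sag-deficient array lay far below every control array, and in Rbx1&Sag-deficient replicate 3 the signal was below the median of its array (4.32), so that the size of the fall is least certain there. Cst7 fell by 4.98 on the log2 scale, a 31.5-fold difference (standard error 0.46, adjusted p = 0.000639 from limma). This was the largest change of the 9 genes, and the spread between Rbx1&Sag-deficient arrays (SD 1.01, n = 3) was wider than between control arrays (SD 0.43, n = 3).

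Cst3 encodes cystatin C, a secreted inhibitor made by most cells. Its signal was 10.34, 10.95 and 10.38 in Rbx1&Sag-deficient arrays and 11.38, 11.56 and 11.23 in control arrays. The groups did not overlap, but the log2 fold change of -0.83 (95% interval -1.38 to -0.29) missed the threshold over all genes (adjusted p = 0.0555 from limma). Cst3 passed after median centring (adjusted p = 0.0357), with array weights (0.0417) and without Rbx1&Sag-deficient replicate 2 (0.0196), while after centring on the brighter genes its log2 fold change was -0.24. Cstb encodes stefin B, a cystatin of the cytosol and nucleus that keeps leaked cathepsins in check. It read 9.59, 9.01 and 9.14 in Rbx1&Sag-deficient arrays and 8.81, 8.98 and 9.04 in control arrays, with overlapping groups and a log2 fold change of 0.30 (95% interval -0.22 to 0.83, adjusted p = 0.409 from limma).

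Among the proteases, Ctsc encodes cathepsin C, a dipeptidyl peptidase that activates granule serine proteases such as granzymes. Ctsc read 9.25, 10.25 and 8.64 in Rbx1&Sag-deficient arrays, against 11.51, 12.32 and 11.81 in control arrays. It fell by 2.50 on the log2 scale, a 5.66-fold difference (standard error 0.40, adjusted p = 0.00649 from limma), without overlap between the groups. The pool of replicate 2 was the highest in both groups, and replicate 3 the lowest of the Rbx1&Sag-deficient arrays.

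Ctsb encodes cathepsin B, an abundant lysosomal protease with endopeptidase and carboxydipeptidase activity. Its signal was 11.43, 11.92 and 11.23 in Rbx1&Sag-deficient arrays and 13.57, 13.93 and 13.10 in control arrays, so that the groups lay apart by more than their own width. Ctsb fell by 2.01 on the log2 scale, a 4.02-fold difference (standard error 0.29, adjusted p = 0.00399 from limma), and its Rbx1&Sag-deficient arrays stood in the same order as those of Ctsc and Cst7. Ctss encodes cathepsin S, which stays active at neutral pH and trims the invariant chain of class II molecules in antigen-presenting cells. Ctss read 11.73, 12.13 and 12.17 in Rbx1&Sag-deficient arrays, against 13.75, 14.13 and 13.51 in control arrays. It fell by 1.79, a 3.45-fold difference (standard error 0.25, adjusted p = 0.00341 from limma). The standard error was the smallest of the 5 genes, and here Rbx1&Sag-deficient replicate 1 and not replicate 3 was the lowest. Over the 5 genes that fell, control replicate 2 was the highest control array in 5 and Rbx1&Sag-deficient replicate 3 the lowest of its group in 4, against 842 and 944 of the 1851 genes called lower over the whole array.

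Lgmn encodes legumain, which cuts after asparagine, processes several cathepsins to their mature chains and is itself inhibited by cystatin C. It read 5.43, 4.82 and 4.43 in Rbx1&Sag-deficient arrays and 6.07, 6.84 and 5.94 in control arrays. The groups did not overlap, and Lgmn fell by 1.39, the least of the 5 (standard error 0.33, limma adjusted p = 0.0288). The call was lost when control replicate 1 (adjusted p = 0.0727), 2 (0.12) or 3 (0.0648) or Rbx1&Sag-deficient replicate 3 (0.052) was left out. Centring on the brighter genes (0.065), quantile (0.0958) and cyclic loess normalization (0.0658) removed it as well. Cst7, Ctsc, Ctsb and Ctss kept their calls under each alternative tried except the methods' unpaired test.

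Ctsw and Ctsh stood apart from the genes that fell. Ctsw encodes cathepsin W, a cysteine cathepsin known from cytotoxic T and natural killer cells. It read 12.03, 12.27 and 10.62 in Rbx1&Sag-deficient arrays and 11.37, 12.22 and 11.46 in control arrays, with Rbx1&Sag-deficient replicates holding both the highest and the lowest value. The log2 fold change of -0.04 had a 95% interval of -1.01 to 0.93 (adjusted p = 0.958 from limma), so that a change of up to about this size in either direction was not resolved. Ctsh encodes cathepsin H, an aminopeptidase. It read 4.08, 3.56 and 3.83 in Rbx1&Sag-deficient and 3.83, 3.38 and 3.54 in control arrays, all under the medians of the arrays. Its log2 fold change was 0.24 (adjusted p = 0.527 from limma), at a signal where little of the transcript could be read.

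**Figure D2:**
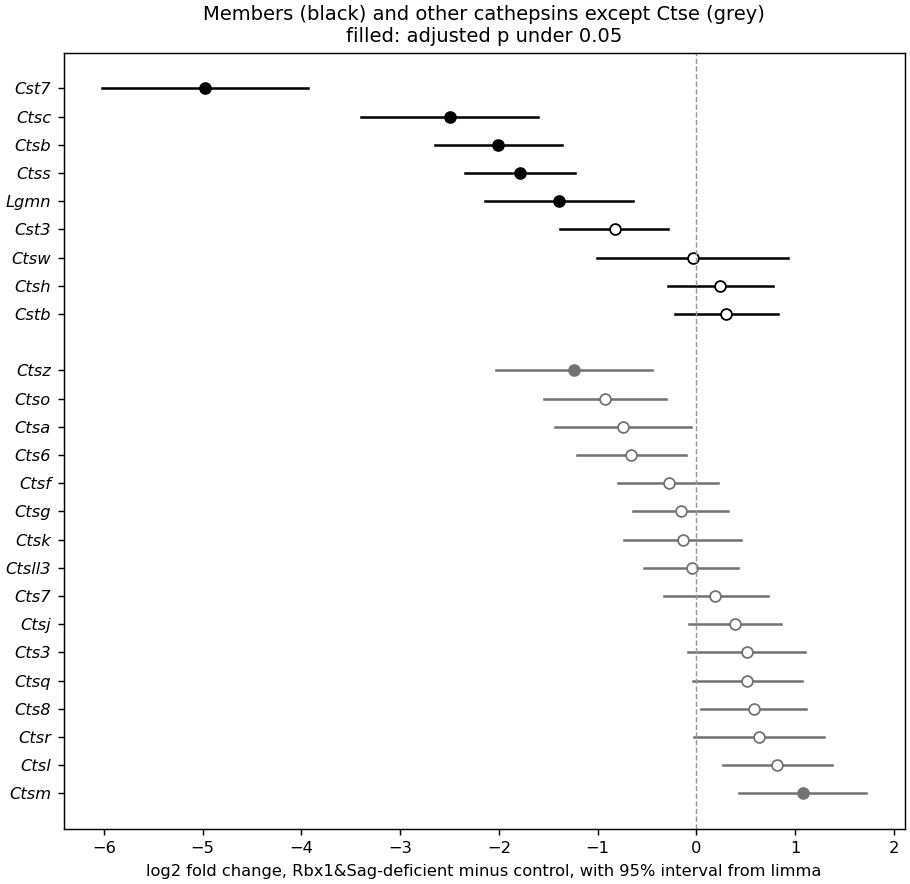
Log2 fold change (horizontal axis, Rbx1&Sag-deficient minus control) with its 95% interval from limma for the 9 measured genes (black, top) and 16 other cathepsins without Ctse (grey), where filled points have an adjusted p under 0.05. Cst7 lies farthest to the left at -4.98, followed by Ctsc, Ctsb, Ctss and Lgmn, and of the other cathepsins Ctsz (-1.24) and Ctsm (1.08) are filled.

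The signal of Cst7 was also set against each of the 3 cathepsins that fell with it, within the same array. A difference of log2 signals within an array does not move when all values of an array are shifted alike, and its height depends on the probe sets, so that only its change between genotypes can be read. Cst7 minus Ctsc was -3.71, -4.03 and -4.41 in Rbx1&Sag-deficient arrays, against -1.02, -1.71 and -1.99 in control arrays. Cst7 minus Ctsb averaged -6.20 ± 0.70 in Rbx1&Sag-deficient arrays and -3.23 ± 0.13 in control arrays (SD, n = 3 each). Cst7 minus Ctss averaged -6.68 ± 1.10 in Rbx1&Sag-deficient arrays and -3.49 ± 0.22 in control arrays (SD, n = 3 each). In each of these comparisons the arrays of the 2 genotypes did not overlap, and the inhibitor transcript stood lower relative to the protease transcript in every Rbx1&Sag-deficient array. The genes were chosen for their falls, and these differences are given without a test.

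**Figure D3:**
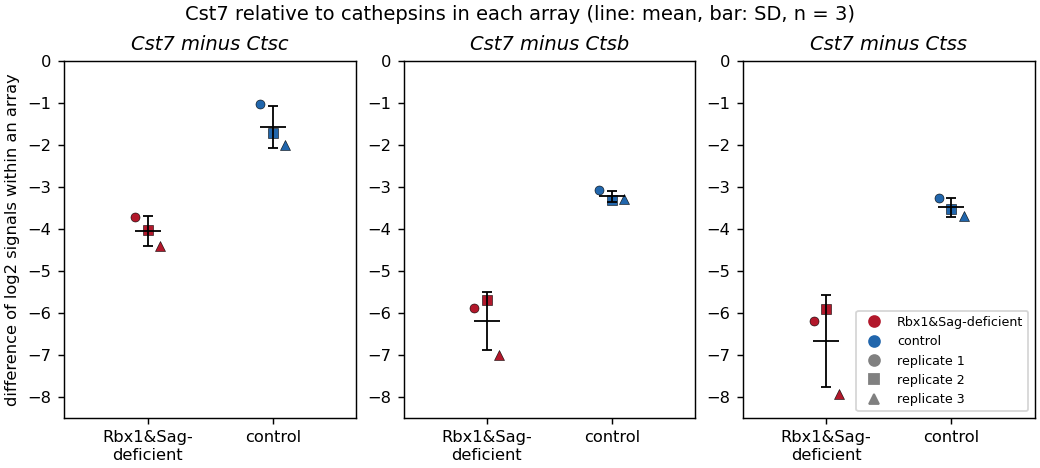
Difference of log2 signals within each array (vertical axis) between Cst7 and Ctsc, Ctsb or Ctss (panels from left to right) in Rbx1&Sag-deficient (red, left) and control arrays (blue, right), with the mean as a line and the SD as a bar. All Rbx1&Sag-deficient points lie below all control points, for Cst7 minus Ctsc at -3.71 to -4.41 against -1.02 to -1.99.

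Promoter windows of RefSeq, from 250 bases before to 50 after the annotated start in GRCm38.p6, were found for 6 of the 10 genes (7 windows, since Lgmn has 2). They are shown for Cst7, Ctsc and Ctss, which fell together, and for Cst3, which missed the threshold, to let the sequences before the moved transcripts be compared. The 2 windows of Lgmn, which was also called lower, are not shown but enter the counts below. Capitals mark the letters GGAAGT, the core that ETS factors bind, and GGGCGG, the GC box, on either strand. The windows are chr2:150570165-150570464, plus strand for Cst7, chr7:88277835-88278134, plus strand for Ctsc, chr3:95526536-95526835, plus strand for Ctss and chr2:148875463-148875762, minus strand for Cst3.
Cst7: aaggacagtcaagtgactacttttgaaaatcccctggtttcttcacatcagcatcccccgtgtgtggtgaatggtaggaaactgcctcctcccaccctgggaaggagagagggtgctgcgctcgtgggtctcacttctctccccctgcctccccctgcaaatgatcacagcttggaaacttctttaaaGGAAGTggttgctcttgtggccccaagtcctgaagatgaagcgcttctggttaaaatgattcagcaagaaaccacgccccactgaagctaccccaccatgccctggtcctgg
Ctsc: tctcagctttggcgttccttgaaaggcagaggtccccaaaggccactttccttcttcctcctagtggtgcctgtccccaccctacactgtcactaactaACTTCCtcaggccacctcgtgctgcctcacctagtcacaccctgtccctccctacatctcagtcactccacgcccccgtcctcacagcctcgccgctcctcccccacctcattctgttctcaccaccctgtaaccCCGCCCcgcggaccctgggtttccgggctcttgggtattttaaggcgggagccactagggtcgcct
Ctss: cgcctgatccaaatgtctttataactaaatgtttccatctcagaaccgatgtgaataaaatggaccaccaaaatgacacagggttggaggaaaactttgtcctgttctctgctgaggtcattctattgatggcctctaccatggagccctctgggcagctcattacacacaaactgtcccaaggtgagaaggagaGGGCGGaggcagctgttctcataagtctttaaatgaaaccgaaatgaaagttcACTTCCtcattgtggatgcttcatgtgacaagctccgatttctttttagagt
Cst3: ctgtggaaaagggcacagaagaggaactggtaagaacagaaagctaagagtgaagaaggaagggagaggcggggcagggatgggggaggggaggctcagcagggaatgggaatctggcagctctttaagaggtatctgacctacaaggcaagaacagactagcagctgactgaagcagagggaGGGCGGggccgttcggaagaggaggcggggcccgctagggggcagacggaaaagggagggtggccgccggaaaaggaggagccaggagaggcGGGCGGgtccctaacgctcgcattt
GGAAGT was found once each in the windows of Cst7, Ctsc and Ctss and in none of Cst3, Ctsd and Lgmn, and 23.8% of all 32851 windows held it. GGGCGG was found in the windows of Cst3, Ctss, Ctsc and Ctsd and in 1 of the 2 of Lgmn, but not in that of Cst7, against 35.7% of all windows. CACGTG, the E-box core within the site of the lysosomal regulator TFEB, was found in 7.15% of all windows and, of these genes, in that of Ctsd and in 1 of the 2 of Lgmn, and not in the 4 windows shown. The motifs did not overlap each other. A match is a description of the letters in the window and not evidence of binding.

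Beyond the listed genes, 17 other cathepsins and 20 other cystatins were measured, and few of them passed the test. Of the 17 cathepsins, Ctsz was lower and Ctsm higher. Ctsz, which encodes the carboxypeptidase cathepsin Z, read 7.01, 8.43 and 7.56 in Rbx1&Sag-deficient arrays and 8.71, 9.19 and 8.82 in control arrays (log2 fold change -1.24, adjusted p = 0.0496 from limma). This call sat at the threshold. It was lost with an intensity trend (adjusted p = 0.0524), after quantile normalization (0.248) and without any 1 of the 3 control arrays (0.109 to 0.185) or Rbx1&Sag-deficient replicate 1 (0.118) or 3 (0.0807). Ctsm, a cathepsin of the rodent placenta, read 5.11, 5.09 and 4.54 in Rbx1&Sag-deficient arrays and 3.46, 4.33 and 3.72 in control arrays (log2 fold change 1.08, adjusted p = 0.0416 from limma). It belongs to a family of related placental genes, and whether its probe set reads Ctsm alone was not examined. Its call was lost after quantile normalization (adjusted p = 0.0953) and without any 1 of the arrays except Rbx1&Sag-deficient replicate 3 (0.0552 to 0.141).

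Ctso, a widely expressed cysteine cathepsin, had a log2 fold change of -0.93 (adjusted p = 0.0562 from limma), and Ctsl, which encodes the endopeptidase cathepsin L, one of 0.82 (adjusted p = 0.058 from limma). Ctsl read 4.63, 5.0 and 4.52 in Rbx1&Sag-deficient arrays and 3.59, 3.97 and 4.13 in control arrays, above all control arrays but near the medians of the arrays. Cts6, another rodent cathepsin, read below the median of every array. Of the 20 other cystatins, many of them stefins of 1 gene cluster with closely related sequences, 0 were called by limma at an adjusted p under 0.05 and 0 by the methods' unpaired test, and 5, all higher in Rbx1&Sag-deficient arrays, had an unadjusted p under 0.05 in limma. The smallest p was that of Stfa2l1, which read 3.77, 4.62 and 6.32 in Rbx1&Sag-deficient arrays and 3.33, 3.54 and 2.97 in control arrays (log2 fold change 1.62, adjusted p = 0.0834 from limma). The median log2 fold change was -0.05 over the other cathepsins and 0.30 over the other cystatins, against -1.39 over the 9 genes, which were chosen with their values known.

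Ctse, which encodes the aspartic protease cathepsin E, was named after its values were seen. It read 7.56, 13.50 and 12.95 in Rbx1&Sag-deficient replicates 1, 2 and 3, against 16.73, 7.30 and 15.29 in control replicates 1, 2 and 3. One pool of each genotype, Rbx1&Sag-deficient replicate 1 and control replicate 2, thus lay far below the other 4 arrays, and the genotypes overlapped. The spread within groups (pooled SD 4.28) ranked 1 of 19505 genes, and the log2 fold change of -1.77 is not resolved. Leaving out Rbx1&Sag-deficient replicate 1 gave 0.12, leaving out control replicate 1 gave 0.04, and leaving out control replicate 2 gave -4.67. The genes ranked next by this spread were Cd55 (pooled SD 2.34) and Cd55b (2.31), which encode decay-accelerating factors that restrain complement on the cell surface. Cd55b read 9.20, 13.13 and 12.87 in Rbx1&Sag-deficient arrays and 14.86, 10.25 and 13.82 in control arrays. Cd55 read 6.89, 11.18 and 11.29 in Rbx1&Sag-deficient arrays and 13.27, 9.09 and 12.16 in control arrays. These copies are closely related, so that their probe sets may share signal. In the RefSeq annotation of GRCm38.p6, Cd55b and Cd55 are neighbours on chromosome 1, and 21 protein-coding genes lie between Cd55b and Ctse. In all 3 genes Rbx1&Sag-deficient replicate 1 and control replicate 2 were the lowest arrays, and the cause was not tested.

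**Figure D4:**
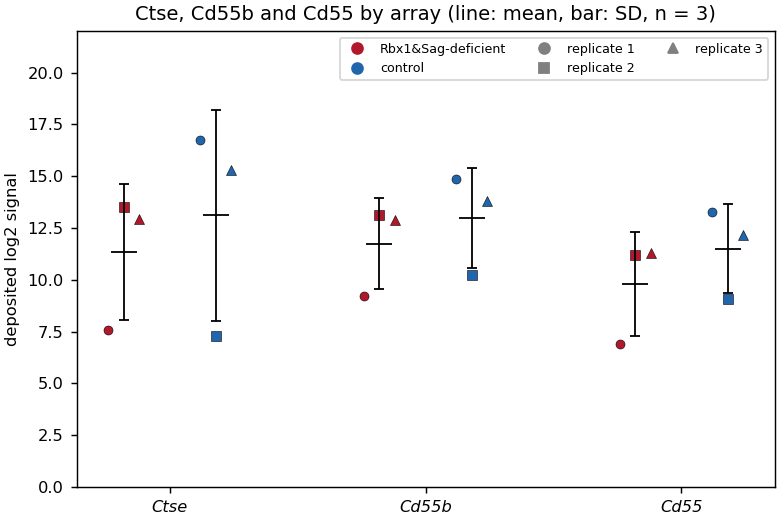
Deposited log2 signal (vertical axis) of Ctse, Cd55b and Cd55 in 3 Rbx1&Sag-deficient (red, left of each pair) and 3 control arrays (blue), with symbols for the replicate number, the mean as a line and the SD as a bar. In each gene Rbx1&Sag-deficient replicate 1 and control replicate 2 lie below the other arrays of both genotypes.

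Genes that handle lysosomal proteins next to the cathepsins were read from the same fit. Of 30 measured hydrolases other than cathepsins, 9 were lower and none higher, and the median log2 fold change was -0.89. Of the 30, 3 had a log2 fold change above 0. The largest was that of Arsb (1.05, adjusted p = 0.117 from limma), with all Rbx1&Sag-deficient arrays above all control arrays. Over the genes above the median signal 18.3% were called lower with a median of -0.40, against 30% of these hydrolases. Among the lower hydrolases were Plbd2 (-1.56), a phospholipase B-like protein, Hexa (-1.32), a subunit of β-hexosaminidase, Ppt1 (-1.26), a thioesterase, Pla2g15 (-0.99), the lysosomal phospholipase A2, and Naglu (-1.0), which acts on heparan sulfate. Of 23 measured genes of lysosomal sorting, membrane and regulation, 5 (21.7%) were lower and none higher, with a median of -0.50, both close to the values over the genes above the median signal. Lamp2, which encodes a major protein of the lysosomal membrane, read 8.57, 9.72 and 8.20 in Rbx1&Sag-deficient arrays and 10.89, 11.52 and 11.43 in control arrays (log2 fold change -2.45, adjusted p = 0.00603 from limma). M6pr, a mannose 6-phosphate receptor that carries new hydrolases to the lysosome, fell by 1.70 (adjusted p = 0.0119 from limma). Gga3, an adaptor for such receptors, had a log2 fold change of -1.30, Tfe3, a transcription factor of lysosomal genes, one of -1.05 and the membrane protein Laptm5 one of -1.0, all called lower. Tfeb, the relative of Tfe3, was named after its values were seen and had a log2 fold change of 0.20. Igf2r and Lamp1 of the same list, also named after their values were seen, were not called. Igf2r had a log2 fold change of 0.58, with all Rbx1&Sag-deficient arrays above all control arrays, and Lamp1 one of -0.26. Of the 23 genes 6 had a log2 fold change above 0. These counts moved with scaling and with the arrays used. Of these 53 genes 14 were lower and none higher, against 4 and 2 after quantile normalization. Without control replicate 1, 2 or 3 there were 5, 1 or 2 lower, and without Rbx1&Sag-deficient replicate 1 there were 8.

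**Figure D5:**
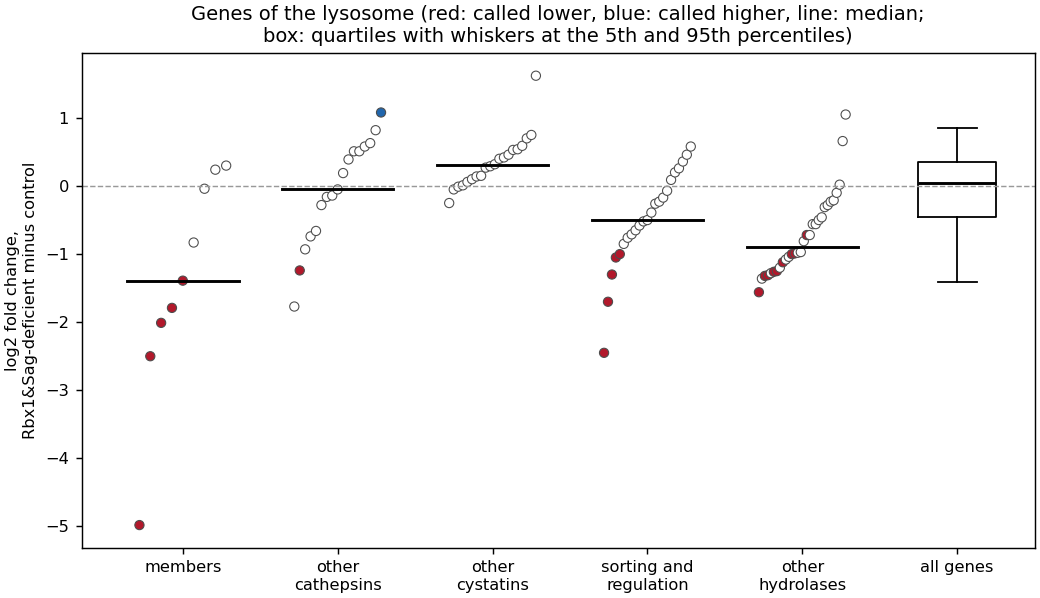
Log2 fold change (vertical axis, Rbx1&Sag-deficient minus control) of each measured gene in 5 lists, red where called lower and blue where called higher by limma, with the list median as a line, beside a box of all 19505 genes (quartiles, whiskers at the 5th and 95th percentiles). The 9 members have a median of -1.39, other hydrolases -0.89, sorting genes -0.50, other cathepsins -0.05 and other cystatins 0.30, against 0.04 over all genes and -0.40 over genes brighter than the median gene.

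Among the proteins that cathepsins act on or work beside, the granzymes were near or below the array medians and the granule proteoglycan was not. The 5 granzymes measured and the pore-forming protein Prf1 had log2 fold changes of -0.35 to 0.30 and did not pass the test. Gzmb, which cathepsin C activates, was named after its values were seen and read 3.26, 3.45 and 4.19 in Rbx1&Sag-deficient arrays and 3.70, 3.56 and 3.56 in control arrays, below the medians of the arrays. Srgn, which encodes serglycin, a proteoglycan that holds granule proteases, read 16.97, 17.69 and 15.99 in Rbx1&Sag-deficient arrays and 19.29, 19.11 and 19.16 in control arrays (log2 fold change -2.30, adjusted p = 0.00772 from limma). Of 9 measured genes of class II presentation 2 were lower and none higher, where 9.49% of all genes and 18.3% of those above the median signal were called lower. Of the 9, 7 had a log2 fold change below 0 and 2 above 0. Ciita was one of these 2, with all Rbx1&Sag-deficient arrays above all control arrays (log2 fold change 0.93, adjusted p = 0.0502 from limma). Ifi30, a lysosomal thiol reductase that opens antigens for cathepsins, read 6.72, 8.39 and 7.88 in Rbx1&Sag-deficient arrays and 9.66, 9.86 and 9.94 in control arrays (log2 fold change -2.16, adjusted p = 0.0103 from limma). The class II chain H2-Eb1 fell by 1.11 (adjusted p = 0.0362 from limma), and its Rbx1&Sag-deficient arrays read below the medians of the arrays. Of these 3 calls 1 was left without control replicate 2 or 3. Of 2 further measured inhibitors of cathepsins, Ctla2a and Ctla2b, neither passed, with log2 fold changes of -0.45 and 0.44.

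Several of these proteases are abundant in myeloid and antigen-presenting cells, and Cst7 and Ctsw in cytotoxic lymphocytes, so that markers of such cells were read beside them. For all marker lists below, the shares called lower were 9.49% over all genes and 18.3% over genes above the median signal. Of 19 measured myeloid markers 4 were lower and none higher, namely Cybb (-5.18), Spi1 (-2.10), Lyz2 (-1.91) and Fcer1g (-1.17). The median log2 fold change of the 19 was -0.30, and 6 of them had one above 0. The linear signal summed over all 19 ranged from 205 to 234 in Rbx1&Sag-deficient arrays and from 733 to 1054 in control arrays. Cybb alone, which encodes a subunit of the phagocyte NADPH oxidase, gave 11 to 22 of it in Rbx1&Sag-deficient arrays and 458 to 699 in control arrays. Without Cybb the sums were 184 to 216 in Rbx1&Sag-deficient arrays and 223 to 354 in control arrays. Lyz2 read 3.06, 3.08 and 3.16 in Rbx1&Sag-deficient arrays and 4.08, 5.59 and 5.35 in control arrays. Csf1r read 3.26 to 3.56 in Rbx1&Sag-deficient and 3.78 to 4.26 in control arrays, also without overlap (log2 fold change -0.58, adjusted p = 0.122 from limma). Its Rbx1&Sag-deficient arrays read below the medians of the arrays and its control arrays near them. The mean of 16 of the 19 lay below the array medians. Of 12 measured CD8+ T and natural killer cell markers Nkg7 (-2.84), Ccl5 (-2.29) and Klrb1c (-2.0) were lower and none higher. The median log2 fold change of the 12 was -0.07, and 4 of them had one above 0. All Rbx1&Sag-deficient arrays lay below all control arrays in 3 of the 12 and above them in 2, Klre1 (0.62) and Ncr1 (0.32). Over all genes these shares were 19.7% and 15.2%. Summed signals of the 12 were 521 to 701 in Rbx1&Sag-deficient arrays and 660 to 958 in control arrays. The defining markers Cd8a and Ncr1 read below the median of every array. The other CD8 chain, Cd8b1, named after its values were seen, read well above the medians, at 8.42 to 9.09 in Rbx1&Sag-deficient and 8.46 to 8.89 in control arrays (log2 fold change -0.02). Without Cd8b1 these sums were 148 to 179 in Rbx1&Sag-deficient arrays and 308 to 493 in control arrays. They still hold the called genes Nkg7, Ccl5 and Klrb1c. Sums without these called genes were not made, so that a fall of the other markers cannot be read from them. Of 11 measured B cell markers Cd79b (-1.81) was lower and none higher, with sums of 175 to 190 in Rbx1&Sag-deficient arrays and of 254 to 268 in control arrays, and Cd79a read below the median of every array. The lower sum came from Cd79b, since without it the other 10 summed to 132 to 156 in Rbx1&Sag-deficient arrays and to 115 to 131 in control arrays, and 7 of the 11 had a log2 fold change above 0 (median 0.25). The 11 T cell markers summed to 369676 to 576323 in Rbx1&Sag-deficient arrays and to 637867 to 805749 in control arrays, also lower without overlap. The cells had been enriched for CD4+ cells and then sorted for CD4 and YFP. How many myeloid, B, CD8+ T or natural killer cells remained was not measured. Their part in the falls of Cst7, Ctsb, Ctsc, Ctss and Lgmn was not tested.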

How the data were processed

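RNA of sorted Treg cells was measured on 6 Clariom S mouse arrays, 3 of Rbx1&Sag-deficient and 3 of control cells, grouped by the sample titles. Per the submitters' processing notes the arrays went through Affymetrix Expression Console 1.4, and the authors deposited 1 log2 signal per array for each of 22206 probe sets. For the algorithm, normalization and annotation, the sources used here give no name. Names came from the platform annotation (19572 probe sets with 1 symbol, 0 with several and 2634 with none), and the probe set with the highest mean per symbol left 19505 genes. A linear model per gene was fitted on these values in R 4.3.3 (limma 3.58.1, lmFit then eBayes, two-sided, no covariates). P-values were adjusted by Benjamini and Hochberg's method across the 19505 genes, and 0.05 was the threshold. Since a replicate is a pool of mice, the tests see only how pools differ, and the number of arrays limits the precision. With 3 against 3 arrays, an exact two-sided permutation test cannot go below 0.1.

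The members and lists were chosen with earlier results of these data known. The genes named are Rbx1, Rnf7, the 9 measured members, up to 5 genes of each further list with the smallest p, and marker genes (up to 4 per list, and defining markers). Ctse, Cd55, Cd55b, Arsb, Tfeb, Igf2r, Lamp1, Gzmb, Prf1 and Cd8b1 were named after their values were seen. Alternatives were other limma settings, the methods' t-test, further scaling, a filter on dim genes, all named probe sets, the replicate block and each array left out.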

Additional observations from a re-analysis of the deposited data

How the results depend on the processing

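Cst7, Ctsb, Ctsc and Ctss were called lower under 16 of 17 alternatives each, and the exception was the methods' t-test (adjusted p = 0.0787, 0.0906, 0.122 and 0.0797). Their log2 fold changes ranged from -5.42 to -4.38, from -2.22 to -1.41, from -2.93 to -1.91 and from -1.97 to -1.19. Lgmn passed under 9 of 17. The 5 members called lower became 4 to 6 when an array was left out, with 0 higher each time, and 0 with the methods' t-test. After centring on the brighter genes 2 members, Cstb and Ctsh, were called higher. That centring carries the median of all genes to 0.64, and median centring carries it to -0.14. Ctsw had log2 fold changes of 0.11 with array weights, 0.55 after centring on the brighter genes, 0.42 after quantile and 0.45 after cyclic loess normalization, 0.22 without control replicate 2 and -0.36 to 0.47 without each Rbx1&Sag-deficient array in turn. Rnf7 had one of 0.02 after centring on the brighter genes. Ctse had 0.04 without control replicate 1, 0.12 without Rbx1&Sag-deficient replicate 1 and -4.67 without control replicate 2. The cause was not tested. Over the 39 genes followed singly, 520 of the values kept direction and call, 117 lost the call, 11 gained one and 9 changed sign.

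Over all genes 1851 were lower and 527 higher. The methods' t-test called 23 lower and 7 higher, centring on the brighter genes 910 and 6966, quantile normalization 748 lower and cyclic loess normalization 907 lower. Median centring called 279 higher and the fit of only the genes above the median signal 324 higher. Leaving out an array gave 544 to 2611 lower and 76 to 1012 higher, and the lower counts were 814, 544 and 605 without control replicates 1, 2 and 3. Lower genes made up 77.8% of calls. Their share was 58.8% with quantile normalization, 59.8% with cyclic loess, 90% with median centring and 11.6% when arrays were centred on the brighter genes.

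Of the other cathepsins and cystatins, 1 was lower and 1 higher. The count of lower genes was 0 with centring on the brighter genes, an intensity trend, robust moderation, the methods' t-test, and quantile or cyclic loess normalization, and 2 with array weights and median centring. The count of higher genes was 19 after centring on the brighter genes, and 0 with the methods' t-test, median centring, quantile and cyclic loess normalization. Leaving out an array gave 0 to 1 lower and 0 to 2 higher.

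Of the lysosomal hydrolases and sorting genes, 14 were lower and 0 higher. There were 0 lower with the methods' t-test, 4 lower and 7 higher after centring on the brighter genes, 4 and 2 after quantile and 3 and 3 after cyclic loess normalization, and 1 higher with array weights. Leaving out an array gave 1 to 17 lower and 0 to 1 higher. Of the partner genes (granule proteins, class II presentation and further inhibitors), 3 were lower and 0 higher. There were 0 lower with the methods' t-test, 4 higher after centring on the brighter genes and 1 higher with an intensity trend, with array weights and in the fit of only the genes above the median signal. Leaving out an array gave 1 to 4 lower and 0 to 1 higher.

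The arrays of both genotypes share replicate numbers. The deviations of same-numbered arrays from their group means correlated at 0.01, 0.11 and 0.02, against -0.13 to 0.11 between differently numbered arrays. No pairing by number was seen. With 3 arrays per group, such values cannot show whether same-numbered arrays were handled together. With the replicate block 5 members were called lower and 0 higher, and Laptm5 (adjusted p = 0.0531) lost its call, the only such change among the genes followed singly. Precision is limited by 3 arrays per group and, for Ctsh, Gzmb and most other cystatins, by signals near or below the array medians.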
